A study of Mus musculus with 1931 samples.

Results

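The ephrins, Eph receptors, semaphorins, plexins and neuropilins were compared across the 3 compartments of RtL-embryoids (rosette-to-lumen stage embryo-like structures) and across the corresponding 2D stem cell cultures. Members were all genes of the table whose symbol is that of an ephrin (*Efna*, *Efnb*), an Eph receptor (*Epha*, *Ephb*), a semaphorin (*Sema3* to *Sema7*), a plexin (*Plxn*) or a neuropilin (*Nrp*). This gave 53 of 20999 genes. They comprise 5 ephrin-A, 3 ephrin-B, 9 EphA, 5 EphB, 20 semaphorin, 9 plexin and 2 neuropilin genes. The rule reads the symbol only. Of the 53 members, 36 were found in enough cells to be compared between groups, and the other 17 are described by their values only.

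RtL-embryoids were assembled in 3D from 3 mouse ESC lines. Kermit ESCs, which carry GFP under the *Pou5f1* promoter and no inducible transgene, give the epiblast-like (Epi-like) cells. iGATA6 ESCs, labelled with mCherry and carrying doxycycline (DOX)-inducible *Gata6*, give the visceral endoderm-like (VE-like) cells. 5-Factor ESCs, carrying DOX-inducible *Cdx2*, *Tfap2c*, *Eomes*, *Gata3* and *Ets2*, give the extraembryonic ectoderm-like (ExE-like) cells. The aggregates, and hence also the Kermit cells in them, were kept for 3 days with 2 µg/ml DOX and for 24 h without it. The DOX was given in reconstructed embryo medium, which is listed without 2i/LIF. Hand-picked structures were pooled, dissociated, stained against CD40 and sorted as single cells on plates 3, 4 and 5. In 2D, 5-Factor ESCs were turned into induced trophoblast stem cells (iTSC, plate 8) and iGATA6 ESCs into induced extraembryonic endoderm cells (iXEN, plate 9) with the same DOX schedule, while Kermit ESCs in 2i/LIF (plate 7) received no DOX. Lineage and cell line therefore differ together and cannot be told apart, and the same holds for 3D or 2D culture, medium and plate. In 2D, iTSC were in TSC medium with FGF4 and heparin and iXEN in XEN cell medium, so line, plate and medium also differ together.

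With a minimum of 2500 genes above 0, 1406 cells were kept, of which 22.33% were Epi-like, 22.40% VE-like and 25.11% ExE-like cells and 10.10% ESC, 10.03% iTSC and 10.03% iXEN cells. The 3 compartments were taken from the sort layout, well columns 1 to 8 for Epi-like, 9 to 16 for VE-like and 17 to 24 for ExE-like cells. Since the sample labels do not give this layout, it was checked against markers. All 7 Epi markers, 7 VE markers and 7 ExE markers had their highest 3D mean in the columns assigned to them, although *Cdx2*, *Eomes* and *Tfap2c* among the ExE markers are also transgenes of the 5-Factor line. VE-like cells also had the highest mean of 6 of 8 parietal endoderm markers, with a summed level of 100.8 to 124.7 TP10k on the plates, against 1.17 to 1.78 TP10k in Epi-like and 5.49 to 9.87 TP10k in ExE-like cells. *Sparc* (59.9 TP10k), *Srgn* (29.1 TP10k), *Col4a1* (16.1 TP10k) and *Lamb1* (5.86 TP10k) led this list, while *Thbd* was found in 0.952% of VE-like cells. The part of parietal endoderm in the differences of VE-like cells was not tested. Of 5 endothelium markers, *Esam* was at 0.467 TP10k in VE-like cells, and the others were at most 0.0117 TP10k there. Of 6 neuron markers, *Tubb3* was at 0.458 TP10k in Epi-like cells, and the others were at most 0.0369 TP10k there. Lists of 4 giant cell and 6 fibroblast markers summed to at most 0.0113 TP10k in a compartment. The highest of the 3 marker lists was that of the own block in each Epi-like cell, in 98.1% of the VE-like and in 71.7% of the ExE-like cells. In 2D it was the Epi list in each ESC and the VE list in each iXEN cell. Of the iTSC, 69.5% had the ExE list and 30.5% the Epi list highest, and all of them were kept throughout. In the ExE columns, 57 cells had the VE list and 43 the Epi list highest, so calls of members in ExE-like cells are also given without these. Summed levels, pairs by direction, effectors and most shares of cells are given for all cells of these columns. Each condition is 1 sample, the plates are technical splits of 1 pool, and no test between conditions was possible.

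The median cell expressed 4823 genes in the Epi-like, 5348 in the VE-like and 5396 in the ExE-like group, against 9093.5 in ESC, 8537 in iTSC and 8699 in iXEN. Plate 3 gave more genes per cell than plates 4 and 5 in each compartment, for example 6622 against 4913 and 4957 in VE-like cells. Levels are TPM scaled to a sum of 10,000 per cell (TP10k), which are corrected for transcript length and can be compared between genes. Shares of cells with a gene depend on depth and are compared only among the 3D compartments. Depth was not equal there either, since Epi-like cells had the lowest median of genes on each plate. The part of this in lower Epi-like shares was not tested.

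Ephrins are membrane-bound ligands that bind Eph receptor tyrosine kinases on neighbouring cells. Ephrin-A ligands are held by a lipid anchor and bind mostly EphA receptors, ephrin-B ligands span the membrane and bind mostly EphB receptors and EphA4, and both sides can signal. Semaphorins act through plexins, the secreted class 3 ones mostly together with neuropilins. Both systems are best known from axon guidance, and they also separate cells at tissue boundaries by repulsion and altered adhesion.

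*Efna1*, *Efna3* and *Efna4* are shown by sequence because these neighbouring ephrin-A genes had different levels in the 3 compartments. They lie within 66.3 kb of chromosome 3 on the minus strand (GRCm38), *Efna1* from 89271733 to 89281142, *Efna3* from 89313899 to 89322965 and *Efna4* from 89333390 to 89338028. Given here are 250 bases before and 50 after the RefSeq start (GRCm38.p6, minus strand), for *Efna1* and *Efna3* the more upstream of the starts listed. Capitals mark AGATAA or its other strand TTATCT, the letters bound by GATA factors, and GCCNNNGGC, those bound by AP-2 factors, both searched on either strand.
Efna1, chr3:89280902-89281201: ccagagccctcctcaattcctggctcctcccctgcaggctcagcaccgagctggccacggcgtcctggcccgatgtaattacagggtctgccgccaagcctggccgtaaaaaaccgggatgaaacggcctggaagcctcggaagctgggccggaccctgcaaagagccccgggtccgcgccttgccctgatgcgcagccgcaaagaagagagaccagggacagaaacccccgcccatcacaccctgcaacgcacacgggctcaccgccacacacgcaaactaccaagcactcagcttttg
Efna3, chr3:89322890-89323189: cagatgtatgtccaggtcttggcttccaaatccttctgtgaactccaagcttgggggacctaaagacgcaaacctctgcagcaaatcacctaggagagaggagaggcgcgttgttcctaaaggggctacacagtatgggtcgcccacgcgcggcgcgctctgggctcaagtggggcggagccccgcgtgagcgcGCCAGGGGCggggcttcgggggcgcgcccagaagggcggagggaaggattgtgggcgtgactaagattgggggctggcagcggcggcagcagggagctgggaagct
Efna4, chr3:89337979-89338278: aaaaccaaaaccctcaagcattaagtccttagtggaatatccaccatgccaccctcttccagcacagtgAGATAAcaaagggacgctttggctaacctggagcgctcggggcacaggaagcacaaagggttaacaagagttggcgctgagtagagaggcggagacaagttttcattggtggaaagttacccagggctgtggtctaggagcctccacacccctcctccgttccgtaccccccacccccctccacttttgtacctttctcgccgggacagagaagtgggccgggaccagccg
The *Efna4* window holds AGATAA and the *Efna3* window GCCAGGGGC, whereas neither is found in the *Efna1* window. Over all 32851 RefSeq promoters of this length, 11.2% hold the GATA letters and 16.6% the AP-2 letters. Of the 61 promoters listed for 47 members, 2 hold the GATA letters and 14 the AP-2 letters. Counted by gene, 2 and 13 of the 47 members hold them in at least 1 promoter. The 61 promoters of the members had a median of 20 CpG, against 7 over all promoters.

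VE-like cells had the highest summed level of the members, with 4.69 TP10k, against 3.52 TP10k in ExE-like and 2.73 TP10k in Epi-like cells. The median cell expressed 9 members in the VE-like, 8 in the ExE-like and 6 in the Epi-like group. A single gene, *Plxnb2*, which encodes a receptor for class 4 semaphorins, made up the largest part of it in VE-like cells, with a mean of 1.06 TP10k. The highest ephrin-A was *Efna3* in VE-like cells (0.597 TP10k) and *Efna4* in Epi-like (0.121) and ExE-like cells (0.306). *Efnb1* was the highest ephrin-B in VE-like (0.114) and ExE-like cells (0.178), and *Efnb2* in Epi-like cells (0.0707). Among EphA receptors *Epha2* had the highest mean in all 3 compartments, and among EphB receptors this was *Ephb3*. *Sema4b* was the semaphorin found in the largest share of cells, 84.7% of ExE-like, 73.2% of Epi-like and 60.6% of VE-like cells. *Plxna1* was the highest A-type plexin in all 3 compartments, with 0.107 to 0.181 TP10k.

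**Figure D1:**
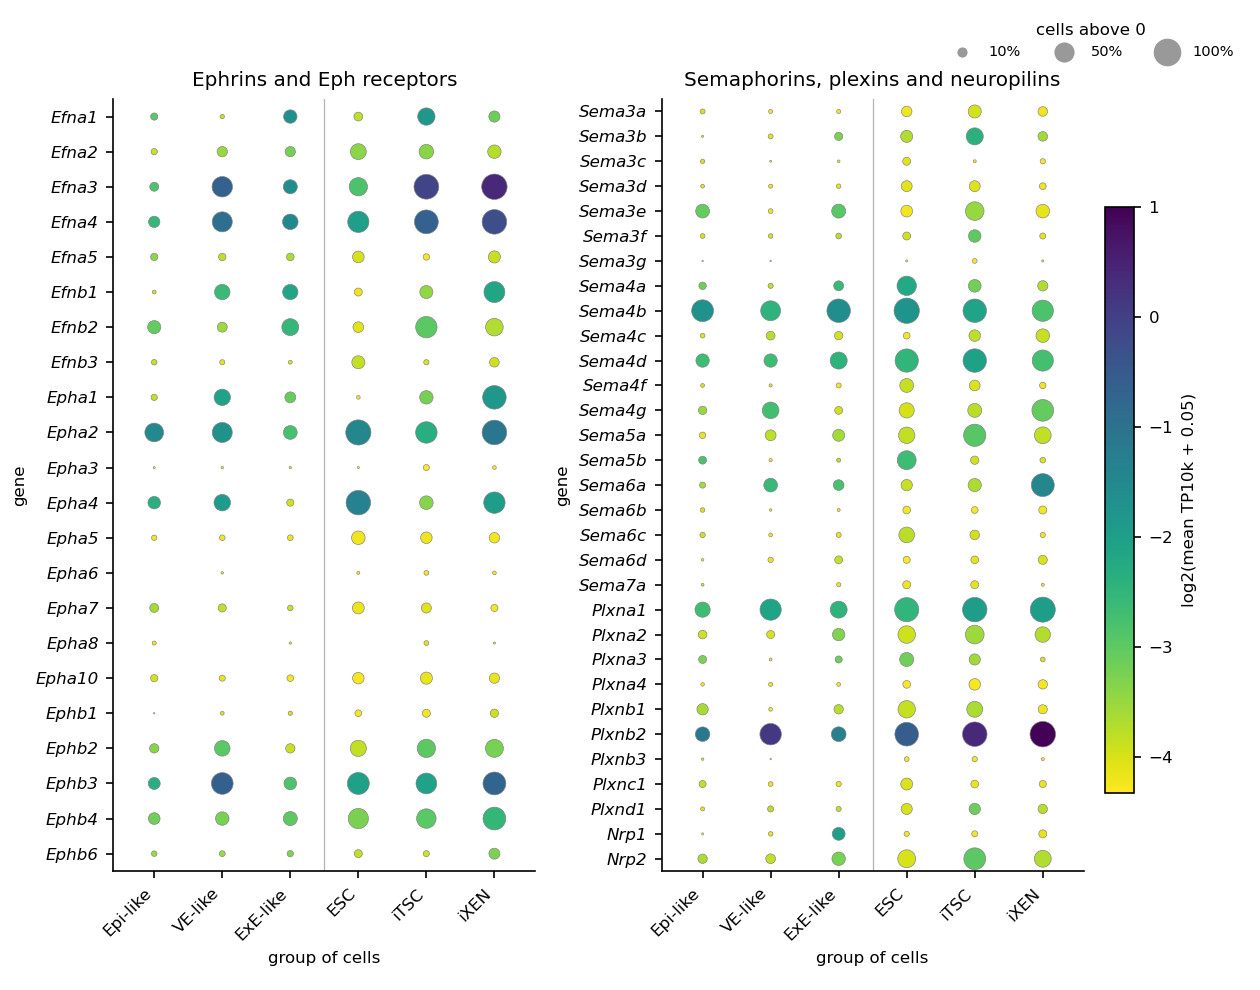
Dot plot of the 53 members (rows) in the 6 groups of cells (columns), with dot area for the percentage of cells above 0 and colour for log2 of the mean TP10k plus 0.05. *Efna3*, *Efna4*, *Ephb3* and *Plxnb2* are dark in VE-like cells, and *Nrp1* is found mainly in ExE-like cells. Dot areas are not compared between 3D and 2D groups, which differed in genes per cell.

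To ask which members differ between the compartments, a gene was called higher or lower when its mean differed at least 2-fold, after adding 0.05 TP10k to both means, over all cells and on each of plates 3, 4 and 5. Values on the log2 scale include these 0.05 TP10k, which understates differences of low genes, whereas folds given for a gene are the plain ratio of its means over all cells. Between VE-like and Epi-like cells, 7 of 36 members were called, 6 higher and 1 lower in VE-like cells. Of all 12127 genes compared, 12.9% were called, 6.93% higher and 5.92% lower. The count depends on the added value, since 12 members were called with 0.01 TP10k and 1, *Efna3*, with 0.2 TP10k. The median log2 fold of the 36 members was -0.03, close to the -0.06 of all genes. The 6 higher genes comprise 3 ligands and 3 receptors, *Efna3*, *Efna4* and *Efnb1* on one side and *Epha1*, *Ephb3* and *Plxnb2* on the other.

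*Efna3* had plate means of 0.492, 0.641 and 0.668 TP10k in the VE-like compartment on plates 3, 4 and 5, and 0.144, 0.0189 and 0.111 TP10k in Epi-like cells. Its mean was 6.62-fold higher in VE-like cells, and it was found in 64.1% of them (95% CI 58.6% to 69.4%) against 12.4% of Epi-like cells (95% CI 8.98% to 16.6%). *Efna4* averaged 0.530, 0.491 and 0.398 TP10k in VE-like and 0.186, 0.123 and 0.0587 TP10k in Epi-like cells, a 3.92-fold difference. For both ligands, every VE-like plate was above every Epi-like plate, which adds little to a call that already asks for 2-fold on each plate. *Efnb1*, the X-linked ephrin-B ligand, had plate means of 0.131, 0.104 and 0.107 TP10k in the VE-like compartment with no Epi-like plate above 0.0239 TP10k. The share of cells with it was 36.8% in the VE-like (95% CI 31.5% to 42.4%) and 2.23% in the Epi-like compartment (95% CI 0.902% to 4.54%).

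Among the receptors, *Ephb3* had plate means of 0.635, 0.648 and 0.514 TP10k in the VE-like compartment, against 0.101, 0.152 and 0.177 TP10k in Epi-like cells. This 4.18-fold difference went with detection in 72.4% of VE-like cells (67.1% to 77.2%) and 22% of Epi-like cells (17.5% to 27%). *Epha1*, a receptor for ephrin-A ligands, had plate means of 0.141, 0.167 and 0.269 TP10k in the VE-like compartment and 0.0335, 0.0099 and 0.0208 TP10k in Epi-like cells. *Plxnb2* averaged 0.997, 1.11 and 1.06 TP10k in VE-like and 0.434, 0.428 and 0.347 TP10k in Epi-like cells, 2.62-fold higher. The plates of VE-like and Epi-like cells did not overlap for any of these receptors, which the call on each plate largely fixes. *Epha2* was not among them, as it averaged 0.258 TP10k in VE-like and 0.302 TP10k in Epi-like cells.

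The member called lower in VE-like cells was *Sema3e*, a secreted semaphorin that binds plexin-D1 without a neuropilin. It had plate means of 0.00196, 0.00447 and 0.00916 TP10k in the VE-like compartment, and 0.0684, 0.0592 and 0.0884 TP10k in Epi-like cells. Only 3.49% of VE-like cells had it (95% CI 1.76% to 6.16%), beside 29.3% of Epi-like cells (95% CI 24.3% to 34.7%). The means differ 14.3-fold, but the log2 fold with the added 0.05 TP10k was only -1.15. *Sema3e* was not called under 4 of 12 alternatives, with 0.2 TP10k added, with at least 4000 genes per cell, with means of ln(TP10k + 1) and in cells with 6000 to 9000 genes.

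Between ExE-like and Epi-like cells, 4 of 36 members were called, 2 higher and 2 lower, against 8.16% of all genes, with 5.11% higher and 3.05% lower. The higher ones were ligands and the lower ones EphA receptors. *Efna1* had plate means of 0.273, 0.206 and 0.328 TP10k in the ExE-like compartment on plates 3, 4 and 5, and 0.109, 0.0362 and 0.0991 TP10k in Epi-like cells. It was found in 27.5% of ExE-like cells (95% CI 22.9% to 32.5%) and 7.96% of Epi-like cells (95% CI 5.22% to 11.5%). Of the cells of the ExE columns with the ExE list highest, 33.99% had *Efna1*, and of the 57 cells with the VE list highest it was 8.77%. *Efnb1* had plate means of 0.250, 0.161 and 0.118 TP10k in the ExE-like compartment, 17.5-fold above Epi-like cells, and Epi-like cells had the lowest mean of this ligand among the 3 compartments.

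*Epha4*, a receptor that binds ligands of both ephrin classes, had plate means of 0.0189, 0.0166 and 0.0109 TP10k in the ExE-like compartment and 0.0963, 0.188 and 0.141 TP10k in Epi-like cells. It was found in 7.93% of ExE-like cells (95% CI 5.34% to 11.3%) and in 24.2% of Epi-like cells (95% CI 19.6% to 29.3%). *Epha2* had plate means of 0.0941, 0.130 and 0.0655 TP10k in the ExE-like compartment against 0.338, 0.331 and 0.240 TP10k in Epi-like cells, 3.12-fold lower. For both receptors the ExE-like plates were below all Epi-like plates, which again follows largely from the call. None of the 4 was called with 0.2 TP10k added. *Efna1* and *Epha2* were also not called when cells had to have at least 4000 genes, *Epha4* when means were taken of ln(TP10k + 1), and both receptors in cells with 6000 to 9000 genes. With only the cells whose own marker list was highest, all 4 were still called, *Efna1* at 1.57, *Efnb1* at 1.81, *Epha2* at -1.55 and *Epha4* at -1.71 on the log2 scale, beside 1.28, 1.92, -1.26 and -1.56 with all cells.

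Between VE-like and ExE-like cells, 6 of 36 members were called, 4 higher and 2 lower in VE-like cells, against 8.04% of all genes, with 3.35% higher and 4.69% lower. The receptors *Ephb3* (6.67-fold), *Epha4* (14.03-fold) and *Plxnb2* (2.98-fold) were higher in VE-like cells. *Sema4g*, a membrane-bound semaphorin and ligand of plexin-B2, averaged 0.0923, 0.113 and 0.105 TP10k in VE-like and 0.0122, 0.0205 and 0.0140 TP10k in ExE-like cells. *Efna1* was 14.6-fold lower in VE-like cells, with 0.0284, 0.0132 and 0.0126 TP10k on the plates, and *Sema3e* was 15.8-fold lower. *Efna1* was thus highest in ExE-like cells, whereas its neighbours *Efna3* and *Efna4* were highest in VE-like cells. *Efna3* was 0.98 higher on the log2 scale in VE-like than in ExE-like cells, which did not reach a call. *Efna4*, with 0.476 TP10k in VE-like and 0.306 TP10k in ExE-like cells, was not called either. *Efna1*, *Efna3* and *Efna4* each had a higher mean in ExE-like than in Epi-like cells. With only the cells whose own marker list was highest, the 6 calls were kept and 7 members were called, with *Ephb3* at 2.31 and *Efna1* at -2.50 on the log2 scale. With 0.2 TP10k added, *Ephb3* was the 1 member called, and it was not called in cells with 6000 to 9000 genes. *Sema4g* lost its call under 3 and *Sema3e* under 4 of the 12 alternatives, both with 0.2 TP10k added, with at least 4000 genes per cell and in cells with 6000 to 9000 genes.

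**Figure D2:**
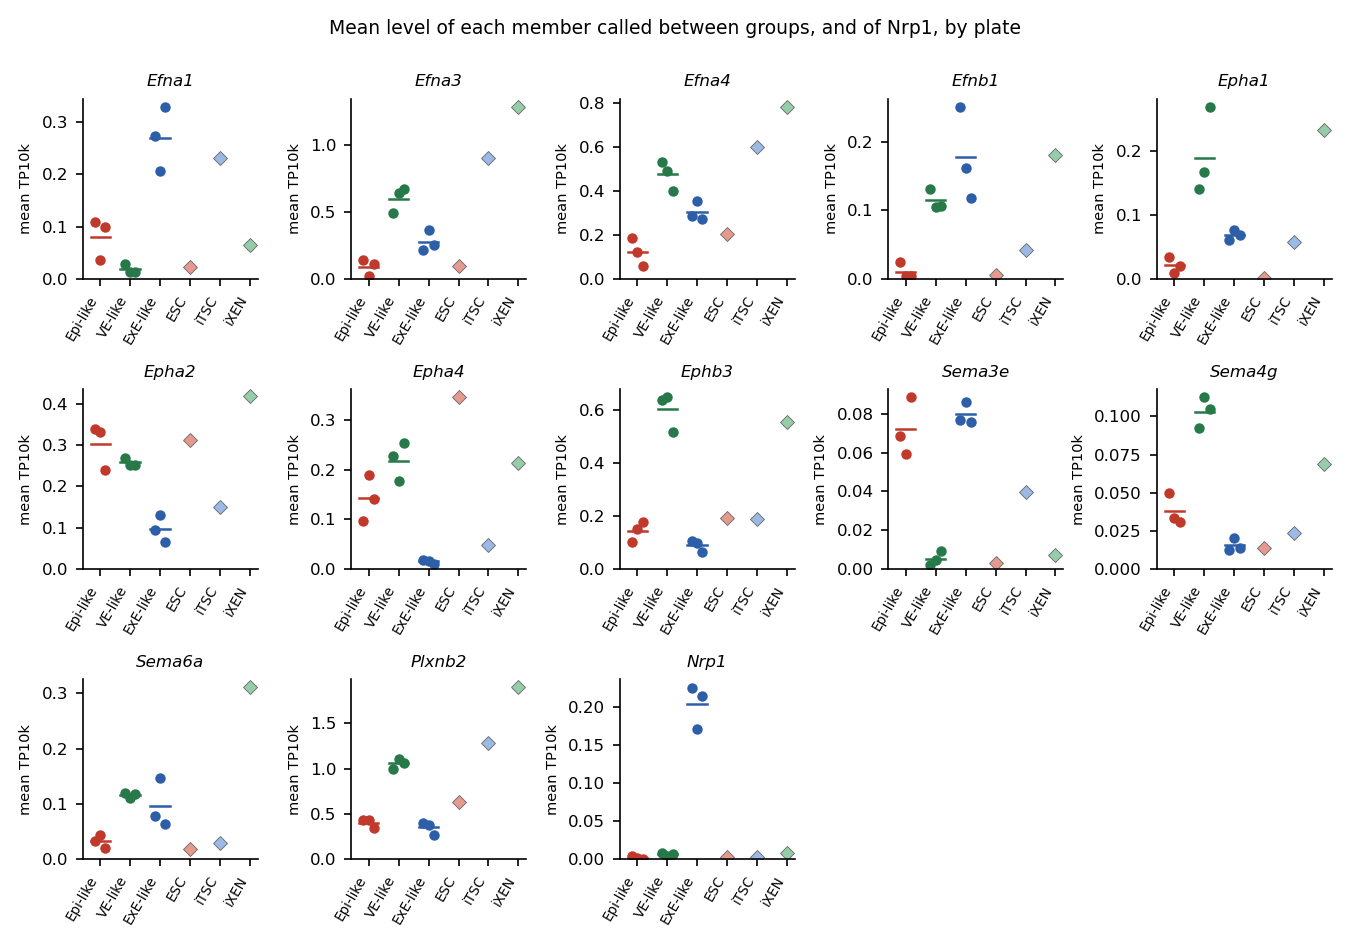
Mean TP10k (vertical axis, from 0) of the 12 members called in a comparison of the 3D compartments or of 3D with 2D, and of *Nrp1*, which was below the filter, by group of cells (horizontal axis). Circles are plates 3, 4 and 5 of the 3D cells, lines the mean over all 3D cells of a group, and diamonds the single 2D cultures. *Ephb3* and *Plxnb2* stand highest in VE-like cells of the 3D compartments, and *Efna1* and *Nrp1* in ExE-like cells.

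*Nrp1*, a neuropilin that serves class 3 semaphorins and VEGF as a co-receptor, was 1 of the 17 members below the detection filter, which asked for 10% of cells on average over the 6 groups. Its values set ExE-like cells apart. *Nrp1* had plate means of 0.224, 0.170 and 0.214 TP10k in the ExE-like compartment on plates 3, 4 and 5, and at most 0.00384 TP10k on an Epi-like and 0.0077 TP10k on a VE-like plate. The share of cells with *Nrp1* was 25.5% in the ExE-like (95% CI 21.03% to 30.4%), 3.17% in the VE-like and 0.637% in the Epi-like compartment. Within the ExE columns it was found in 24.5% of the cells with the ExE list highest, in 35.1% of those with the VE list and in 18.6% of those with the Epi list highest. The 5% of ExE-like cells with the highest values held 56.2% of its summed level. The 2D iTSC, from the same cell line, averaged only 0.00282 TP10k. The second neuropilin, *Nrp2*, was found in 13.4% of Epi-like, 27.8% of ExE-like and 14.6% of VE-like cells.

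The other members below the filter were *Efnb3*, *Epha3*, *Epha6*, *Epha8*, *Ephb1*, *Ephb6*, *Plxna4*, *Plxnb3*, *Plxnc1*, *Sema3c*, *Sema3d*, *Sema3f*, *Sema3g*, *Sema6b*, *Sema6d* and *Sema7a*. Their means in the 3D compartments were at most 0.0504 TP10k, the value of *Ephb6*, an Eph receptor without kinase activity, in ExE-like cells. *Epha6* was at 0 in each Epi-like and each ExE-like cell, which allows shares of cells above 0 of up to 0.955% and 0.850% (3 cells of the total). This limits detection and not the share of cells that express it. No member was at 0 in all 6 groups.

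Of the members that were compared and not called, several went past 2-fold in the mean but not on each plate. *Sema5b*, a membrane semaphorin, averaged 0.0944 TP10k in Epi-like cells and 0.00125 TP10k in VE-like cells, but with 0.0444, 0.0613 and 0.176 TP10k on the Epi-like plates the values depended on the plate. *Sema6a*, a ligand of A-type plexins, was 1.01 higher on the log2 scale in VE-like than Epi-like cells, with plate 4 at 0.78. *Efna3* and *Efna4* were 1.23 and 1.05 higher in ExE-like than Epi-like cells, with plate 3 at only 0.44 and 0.52. *Plxna1*, *Ephb4* and *Sema4d* each reached 20% of cells in the 3 compartments and differed by at most 0.56 on the log2 scale between compartments.

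To see which members could meet as ligand and receptor, 90 pairs known from the families were examined in the 6 directions between compartments, counting a pair when each gene was above 0 in 10% or more of its compartment. Of the 540 combinations, 21.3% were counted, with 31 different pairs of 12 ligands and 11 receptors. Of all 20999 genes, 46.34% reached this share in the Epi-like, 46.97% in the VE-like and 49.59% in the ExE-like compartment, while of the 53 members it was 18, 21 and 25. ExE-like cells as the ligand side gave the most pairs, 27 to VE-like and 26 to Epi-like cells, and Epi-like cells gave the fewest, 14 to VE-like and 10 to ExE-like cells. From VE-like cells there were 21 to Epi-like and 17 to ExE-like cells. The Epi-like cells also had the lowest median of genes per cell, and the part of this depth in the order was not tested. Without plate 3, which had the most genes per cell, 17.4% of the combinations were counted.

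Of these, *Efna3* to *Epha2* and *Efna4* to *Epha2*, *Efnb2* to *Ephb2*, *Ephb3* and *Ephb4*, and *Sema4d* to *Plxnb2* were counted in all 6 directions. *Efnb2*, highest in ExE-like cells, was found in 44.2% of them and its receptor *Ephb3* in 72.4% of VE-like cells. *Sema4d*, the ligand of plexin-B1 and plexin-B2, was found in 44.8% of ExE-like cells and *Plxnb2* in 70.8% of VE-like cells. From VE-like to Epi-like cells, *Efna3* and *Efna4* were found in 64.1% and 61.6% of VE-like cells and *Epha2* in 53.8% of Epi-like cells. *Sema4g* with *Plxnb2* was counted only with VE-like or Epi-like cells as the ligand side, 42.5% and 10.8% of which had the ligand. ExE-like cells fell just under the 10% limit, with *Sema4g* in 9.63% of them (95% CI 6.76% to 13.2%). This share is close to that of Epi-like cells (95% CI 7.62% to 14.8%).

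The 9 pairs of secreted semaphorins gave nearly none of these counts. Only *Sema3b* to *Nrp2* was counted, from ExE-like to each of the other compartments, with *Sema3b* in 10.5% of ExE-like cells (95% CI 7.49% to 14.2%). It was in 9.88% of the cells of the ExE columns with the ExE list highest, and in 15.8% of the 57 with the VE list highest. With the former cells alone, *Sema3b* falls under the 10% limit and this pair is not counted. For *Sema3e*, with 29.3% of cells in the Epi-like and 30.03% in the ExE-like compartment, the receptor *Plxnd1* was above 0 in only 2.55% to 5.71% of cells. *Nrp1* had no class 3 ligand of its pairs above 10% in Epi-like or VE-like cells. *Sema4b*, the most widely found ligand gene in the Epi-like and ExE-like compartments, had no receptor assigned in the pairs.

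**Figure D3:**
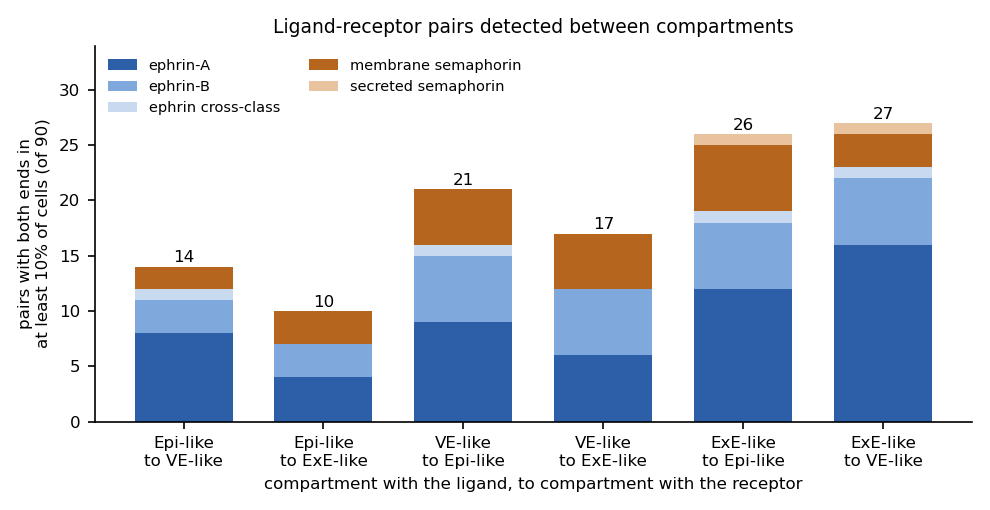
Number of ligand-receptor pairs (of 90, vertical axis) with both genes in at least 10% of the cells of their compartment, for the 6 directions between compartments (horizontal axis) and by class of ligand (colours). The counts run from 10, Epi-like to ExE-like, to 27, ExE-like to VE-like, and ephrin-A pairs are the largest class in each direction except VE-like to ExE-like, where ephrin-B pairs are as many. Ephrin-A ligands make up 45 and ephrin-B ligands 15 of the 90 pairs, and as a share of these the ephrin-B pairs are higher in each direction, for example 40% against 13.3% from VE-like to ExE-like cells.

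Ligands and receptors were often found in the same cell, where any gene of a family counts. Whether they met in a cell more often than their separate shares give was not tested. An ephrin-A and an EphA gene were both above 0 in 73.3% of VE-like cells (95% CI 68.1% to 78.1%), in 35.4% of ExE-like cells (95% CI 30.4% to 40.6%) and in 31.8% of Epi-like cells (95% CI 26.7% to 37.3%). The side that was missing differed between the other compartments. In Epi-like cells, 73.2% had an EphA gene and 42.4% an ephrin-A gene, whereas in ExE-like cells 51.8% had an EphA gene and 66.9% an ephrin-A gene. Of the VE-like cells, 84.8% had an EphA gene and 85.1% an ephrin-A gene. For ephrin-B and EphB, 88.3% of VE-like cells had a receptor and 46.98% a ligand, and in ExE-like cells it was 54.96% and 65.2%. A semaphorin and a plexin were found together in 68.8% to 79.4% of the cells of the 3 compartments. These shares rest on TPM above 0, their intervals cover counting error only, and they could not be brought to an equal depth without read counts.

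Comparing the 3D cells with their 2D counterparts, few members were called. Between Epi-like cells and ESC it was 1 of 36, against 4.11% of all genes. *Sema3e* averaged 0.0720 TP10k in Epi-like cells and 0.00304 TP10k in ESC. Its call was lost under the same 4 alternatives as between VE-like and Epi-like cells. *Epha4*, with 0.345 TP10k in ESC, was 1.03 lower on the log2 scale in Epi-like cells, but only 0.73 lower on plate 4. Between VE-like and iXEN cells, 1 of 36 was called, against 2.04% of all genes, namely *Sema6a* with 0.116 TP10k in VE-like and 0.311 TP10k in iXEN cells.

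Between ExE-like cells and iTSC, 2 of 36 members were called, against 5.57% of all genes, and both were lower in ExE-like cells. *Plxnb2* averaged 0.405, 0.382 and 0.272 TP10k on the ExE-like plates and 1.28 TP10k in iTSC, and *Efna3* averaged 0.213, 0.368 and 0.255 TP10k against 0.905 TP10k. *Plxnb2* was therefore lower in ExE-like cells than in VE-like cells and iTSC, but its mean of 0.354 TP10k was close to the 0.403 TP10k of Epi-like cells. Without a call, it was also lower in Epi-like cells than in ESC (0.628 TP10k). The same held for VE-like cells (1.06 TP10k) beside iXEN (1.90 TP10k). *Nrp1*, described above, averaged 0.203 TP10k in ExE-like cells and 0.00282 TP10k in iTSC, 2.26 higher on the log2 scale. With only the ExE-like cells whose own marker list was highest, the log2 folds were -1.84 for *Plxnb2*, -1.44 for *Efna3* and 2.14 for *Nrp1*, and both calls were kept. The iTSC were not restricted in this way, although 30.5% of them had the Epi list highest.

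To see whether the differences between compartments recur in 2D, the same genes were compared between the lines, with 1 culture each. These cultures come from the same lines as the 3D cells, and line, plate and medium differ together between them. Of all genes, 21.5% differed at least 2-fold between iXEN and ESC, 14.2% between iTSC and ESC and 15.2% between iXEN and iTSC. Of the 7 members called between VE-like and Epi-like cells, 6 were at least 2-fold different in the same direction between iXEN and ESC, beside 71.2% of all genes called in that 3D comparison. These were *Efna3*, *Efna4*, *Efnb1*, *Epha1*, *Ephb3* and *Plxnb2*, and the exception was *Sema3e*, which was at 0.00719 TP10k in iXEN and 0.00304 TP10k in ESC. *Efna3* reached 1.28 TP10k in iXEN against 0.0930 TP10k in ESC, a 13.8-fold difference. *Epha1* was at 0.233 TP10k in iXEN and 0.000613 TP10k in ESC.

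Of the 4 members called between ExE-like and Epi-like cells, 2 were called the same way between iTSC and ESC, beside 50.7% of all genes. All iTSC were used here, including the 30.5% with the Epi list highest. These were *Efna1*, with 0.231 TP10k in iTSC and 0.0224 in ESC, and *Epha4*, with 0.0478 TP10k in iTSC and 0.345 in ESC. *Efnb1* and *Epha2* went in the same direction by 0.73 and -0.86 on the log2 scale, under the 2-fold limit. Of the 6 members called between VE-like and ExE-like cells, 3 were called the same way between iXEN and iTSC (*Efna1*, *Epha4* and *Ephb3*), beside 62.1% of all genes.

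**Figure D4:**
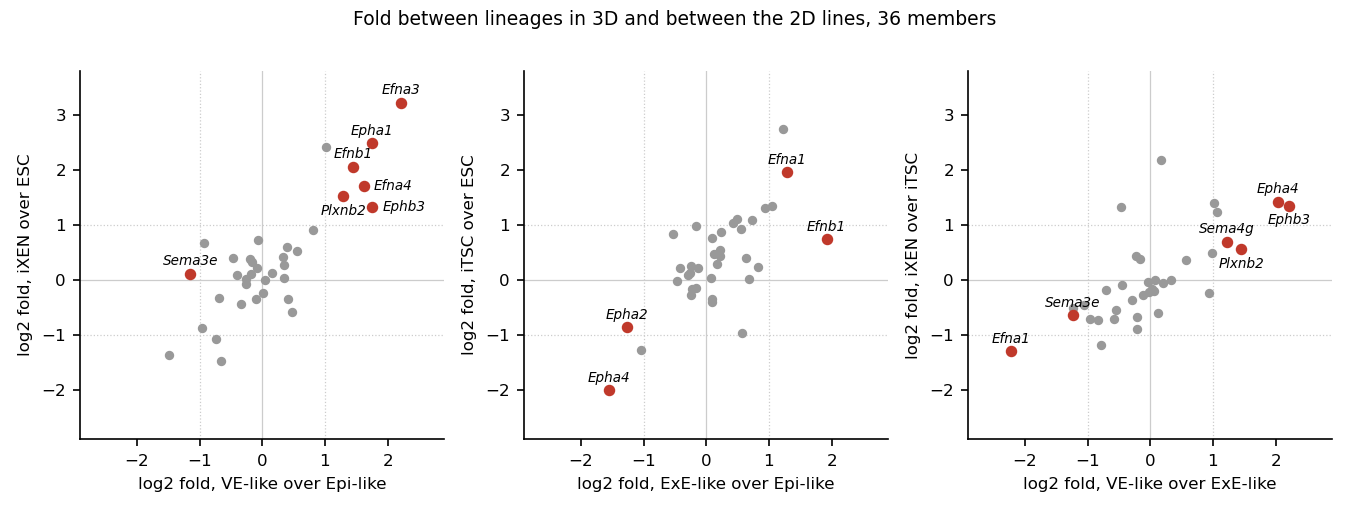
Log2 fold of the 36 compared members between compartments in 3D (horizontal axes) and between the corresponding 2D lines (vertical axes), for VE-like over Epi-like, ExE-like over Epi-like and VE-like over ExE-like cells. Red points with names are the members called in 3D, dotted lines mark 2-fold, and the panels share groups of cells. *Efna3* stands farthest up in the left panel at 2.21 in 3D and 3.22 in 2D.

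Genes that act downstream of these receptors were described from lists of effectors. Of 26 Eph effectors 24 were compared, of which 4 were called between VE-like and Epi-like cells, 3 between ExE-like and Epi-like cells and 3 between VE-like and ExE-like cells. These are 16.7%, 12.5% and 12.5%, beside 12.9%, 8.16% and 8.04% of all genes. *Grb10*, an adaptor of receptor tyrosine kinases, averaged 0.802 TP10k in Epi-like, 0.207 in ExE-like and 0.0392 TP10k in VE-like cells. *Pak1*, a kinase downstream of Rac and Cdc42, averaged 0.764 TP10k in Epi-like, 0.219 in VE-like and 0.0507 TP10k in ExE-like cells. *Sdcbp*, which encodes the ephrin-B-binding adaptor syntenin, was higher in ExE-like (3.52 TP10k) than Epi-like cells (1.07 TP10k).

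Of 30 semaphorin effectors 29 were compared, and 3, 4 and 2 were called in the same 3 comparisons, which is 10.3%, 13.8% and 6.90% and under the share of all genes in the first and the last. *Crmp1*, a cytosolic mediator of semaphorin 3A, averaged 0.365 TP10k in Epi-like cells and 0.00706 TP10k in ExE-like cells. *Dpysl3*, of the same family, averaged 0.0381 TP10k in VE-like and 0.289 TP10k in Epi-like cells, and *Itgb1*, the integrin beta 1 gene, 1.45 TP10k in ExE-like and 0.541 TP10k in Epi-like cells. Of 22 genes of other guidance systems only 10 were compared, and 1 was called in each comparison, a share of 10%. *Flrt3*, which encodes a ligand of Unc5 receptors, averaged 1.72 TP10k in VE-like cells against 0.0212 TP10k in Epi-like and 0.0838 TP10k in ExE-like cells. *Unc5b*, a netrin and FLRT receptor, averaged 0.323 TP10k in ExE-like and 0.0444 TP10k in Epi-like cells. In the 3 comparisons with 2D cells, 3, 0 and 0 Eph effectors, 2, 0 and 1 semaphorin effectors and 0 genes of other guidance systems were called, where 4.11%, 2.04% and 5.57% of all genes were.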

How the data were processed

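Single cells were sequenced with SMART-seq2. Per the labels and methods, the authors quantified transcripts with kallisto (GRCm38), summed them per gene and removed mitochondrial, ribosomal and pseudogenes. They deposited TPM for 20999 genes in 1931 wells.

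Wells with at least 2500 genes above 0 were kept, which left 314 Epi-like, 315 VE-like, 353 ExE-like, 142 ESC, 141 iTSC and 141 iXEN cells, and TPM was scaled to 10000 per cell. Members and lists were chosen with earlier results of these data known. Genes were compared when their shares of cells above 0 averaged at least 10% over the 6 groups (12127 genes). A call needed a 2-fold difference of means plus 0.05 TP10k, over all cells and on each 3D plate. Named were called members (at most 10 a direction and comparison), the highest member of each subfamily and the 3 listed effectors with the largest folds, the last in part. No p-values were computed. Shares have exact Clopper-Pearson 95% intervals, which cover counting error only. The call rule was tried on real VE-like cells split at random, with randomly picked genes raised or lowered in a part of them. Its outcome is not given here. Gene positions are from Gencode (GRCm38) and promoters from RefSeq. Doublets were not called, since wells were sorted as single cells. Python 3.11.15, pandas 2.3.3 and scipy 1.17.1 were used.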

Additional observations from a re-analysis of the deposited data

How the results depend on the processing

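The counts of called members depended most on the value added to both means before the fold. With 0.01 TP10k in place of 0.05, 12 members were called between VE-like and Epi-like cells (main 7), 8 between ExE-like and Epi-like (main 4), 12 between VE-like and ExE-like (main 6), 3 between Epi-like cells and ESC (main 1) and 6 between ExE-like cells and iTSC (main 2), while 11, 5 and 9 were shared with the 2D comparisons (main 6, 2 and 3) and 19, 18 and 17 were called between iXEN and ESC, iTSC and ESC, and iXEN and iTSC. With 0.2 TP10k, these counts were 1, 0, 1, 0 and 1, then 1, 0 and 0, and 5, 2 and 1, and 0 between VE-like and iXEN cells (main 1). With at least 4000 genes per cell, 2 members were called between ExE-like and Epi-like cells, of which 1 was shared with iTSC over ESC, and 0 between Epi-like cells and ESC. *Plxnb2* between VE-like and Epi-like cells and *Sema4g* between VE-like and ExE-like cells were also not called there. With the mean of ln(TP10k + 1), 3 were called between VE-like and iXEN cells and 1 was shared between ExE-like over Epi-like and iTSC over ESC, and the latter count was also 1 with a filter at 25%. In cells with 6000 to 9000 genes, of which only 33 were Epi-like, 2 members were called between Epi-like cells and ESC, 2 between VE-like and iXEN cells and 1 between ExE-like cells and iTSC. Leaving out 1 plate gave 1 to 3 members between Epi-like cells and ESC, 2 without plate 3 and 3 without plate 4. The share of pair and direction combinations counted was 6.85% from 25% and 43.9% from 5% of the cells, beside 21.3%, and 17.4% to 27.4% without 1 plate. The causes were not tested.

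Under the 12 alternatives, none of the 21 log2 folds called and of the 3 of *Nrp1* changed sign, and 2 were called under each alternative, *Efna3* between VE-like and Epi-like cells and *Plxnb2* between ExE-like cells and iTSC. Restricting the 3D cells to those whose own marker list was highest, omitting the filter or leaving TPM unscaled moved no count by more than 1.5 times. The table holds TPM, so that sampling error of low genes cannot be computed, and absence from a cell was not told apart from missed detection. No paired analysis was possible because each condition is 1 sample. The alternatives for the comparisons between 2D cultures and for VE-like over ExE-like with iXEN over iTSC were added after the data were seen.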

Other observations

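Between the 2D cultures, 10 of the 36 members differed at least 2-fold between iXEN and ESC (21.5% of all genes), 9 between iTSC and ESC (14.2%) and 8 between iXEN and iTSC (15.2%), with 1 culture each and no test. Some of the members among them were not called in the 3D comparisons. *Sema6a* averaged 0.311 TP10k in iXEN cells against 0.0178 TP10k in ESC and 0.0295 TP10k in iTSC. *Sema3b*, a secreted semaphorin, averaged 0.138 TP10k in iTSC, 0.0332 TP10k in iXEN cells and 0.0260 TP10k in ESC. *Efnb2* averaged 0.0771 TP10k in iTSC and 0.0089 TP10k in ESC, and *Nrp2* 0.0768 and 0.0121 TP10k. ESC had the highest mean of *Sema5b* among the 2D cultures, with 0.108 TP10k against 0.0155 TP10k in iTSC and 0.0113 TP10k in iXEN cells. *Sema4a* averaged 0.165 TP10k in ESC and 0.0272 TP10k in iXEN cells. These genes were chosen after their values were seen.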
